A study of Mus musculus with 22 samples.

Results

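The genes described here encode 10 acute-phase and complement proteins of mouse macrophages. They were picked by symbol, as Saa3, Lcn2, Serpina3g, Slpi, Hp, Cfb, C3, C1qa, C1qb and C1qc, from a table of 16059 genes. All 10 were in the table, and all 10 were among the 12213 genes that passed the filter on low counts. RNA was measured in bone marrow-derived macrophages of C57/BL6 mice, phagocytes differentiated over 7 days of marrow culture with supernatant of L929 cells. The cells of 5 groups, with 2 RNA-seq libraries each, were compared after 3 h. LPS+LA cells received lipopolysaccharide (LPS), the bacterial cell wall component sensed by Toll-like receptors, at 100 ng/ml together with L-(+)-lactic acid (LA) at 10 mM. LPS+HCl cells received LPS in medium acidified with hydrochloric acid, with a pH of 6.5 named as an example in the labels. LPS cells received LPS alone, LA cells received lactic acid alone at a dose that the labels do not state, and control cells received neither. The pH reached with LA is not stated. Accessible chromatin was assayed by ATAC-seq in 3 samples each of LPS+LA, LPS, LA and control cells. The labels do not say whether replicates were separate cultures or animals, so a p-value here reflects the spread between libraries, and that spread may be technical.

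The acute-phase response is the rapid rise of secreted defence proteins that follows infection or injury. The liver supplies most of these proteins to plasma, and activated macrophages make some of them locally. Complement is a cascade of plasma proteins that tags microbes for uptake. C1q, built from 3 chains, starts the classical pathway, C3 is the component on which the pathways converge, and factor B (Cfb) forms the alternative pathway's C3-cleaving enzyme. Macrophages are a main source of C1q in the body.

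The RNA libraries held 18668666 to 20219895 counts each. Levels are given as CPM, the count scaled to a common library size after TMM scaling, which sets the bulk of genes level between libraries. Scaling factors ran from 0.759 in LPS libraries to 1.27 in control libraries. Under total-count scaling, with no such factor, the median of all genes lay at log2 -0.77 for LPS against control, where TMM put it at -0.05. The 10 macrophage marker genes were all detected and summed to 13700 to 19400 CPM. Hepatocyte markers, whose cells are the usual source of acute-phase proteins, summed to 0.713 to 1.93 CPM. Neuron markers summed to 22.6 CPM in LPS+HCl replicate 2 and 12.1 CPM in control replicate 1, and to at most 5.06 CPM in the other 8 libraries. Dendritic cell markers summed to 6.26 to 10.3 CPM in the 6 libraries with LPS and 0.97 to 3.30 CPM in the 4 without it, and their part in the results was not tested. Ccr7 made up most of the sum in LPS (8.55 and 6.48 CPM) and LPS+HCl (6.34 and 5.97 CPM), and Ccr7 with Zbtb46 in LPS+LA. Flt3, Xcr1, Clec9a and Siglech were each at or below 0.648 CPM in every library. Because these are bulk samples, fewer expressing cells and less RNA per cell cannot be told apart.

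RefSeq promoters, running from 250 bases before to 50 bases after a gene's start in GRCm38.p6, were found for 7 of the 10 genes. The following 5 are shown because they belong to the genes whose RNA or start-site chromatin set the groups apart, with C1qb as a gene whose start was open in all samples. Each is written 5′ to 3′ on the strand of its gene, and capitals mark a match to one of the motifs searched.
Saa3: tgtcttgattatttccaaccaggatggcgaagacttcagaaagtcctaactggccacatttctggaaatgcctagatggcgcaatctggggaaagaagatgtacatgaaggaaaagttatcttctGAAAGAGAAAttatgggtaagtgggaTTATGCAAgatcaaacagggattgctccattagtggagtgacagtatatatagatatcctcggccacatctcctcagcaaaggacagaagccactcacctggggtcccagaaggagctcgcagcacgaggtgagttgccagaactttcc
Lcn2: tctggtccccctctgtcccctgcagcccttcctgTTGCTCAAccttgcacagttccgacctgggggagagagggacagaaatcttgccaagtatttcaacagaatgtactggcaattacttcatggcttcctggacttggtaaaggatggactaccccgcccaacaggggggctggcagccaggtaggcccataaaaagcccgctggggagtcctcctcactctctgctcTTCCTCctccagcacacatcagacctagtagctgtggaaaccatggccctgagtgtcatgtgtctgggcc
Serpina3g: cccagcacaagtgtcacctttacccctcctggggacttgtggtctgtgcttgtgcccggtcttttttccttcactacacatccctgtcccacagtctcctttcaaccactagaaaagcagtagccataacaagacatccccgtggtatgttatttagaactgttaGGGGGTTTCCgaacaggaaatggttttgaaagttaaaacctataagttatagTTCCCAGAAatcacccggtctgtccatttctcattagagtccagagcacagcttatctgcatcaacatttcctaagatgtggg
C3: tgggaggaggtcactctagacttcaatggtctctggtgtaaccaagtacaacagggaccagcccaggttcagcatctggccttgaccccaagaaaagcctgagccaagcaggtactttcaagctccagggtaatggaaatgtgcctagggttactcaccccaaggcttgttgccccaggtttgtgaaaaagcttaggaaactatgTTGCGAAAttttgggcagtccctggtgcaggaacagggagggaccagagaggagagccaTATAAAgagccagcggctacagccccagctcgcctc
C1qb: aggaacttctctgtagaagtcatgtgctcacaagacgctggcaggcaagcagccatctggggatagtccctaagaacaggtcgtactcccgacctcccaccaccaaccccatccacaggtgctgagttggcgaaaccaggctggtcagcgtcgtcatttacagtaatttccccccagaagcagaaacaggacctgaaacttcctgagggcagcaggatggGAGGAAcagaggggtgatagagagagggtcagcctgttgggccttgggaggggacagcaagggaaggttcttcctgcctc

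Saa3 lies on the minus strand and its promoter is chr7:46715627-46715926, inside the longer gene bounds of RefSeq. It held a C/EBP match and, before it, an IRF match. Lcn2 (chr2:32387690-32387989, minus strand) held a C/EBP match and a PU.1 match. Serpina3g (chr12:104235897-104236196, plus strand) held an NF-kB match and a STAT match. C3 (chr17:57228087-57228386, minus strand) held a C/EBP match and a TATA box match. The TATA box match of C3 lay 14 to 19 bases after the annotated start, not before it. C1qb (chr4:136886151-136886450, minus strand) held a PU.1 match. Of the promoters not shown, C1qc held an NF-kB match and a PU.1 match, and Slpi held a C/EBP match. NF-kB and C/EBP matches were thus not confined to genes with a large response to LPS. Both strands were searched, NF-kB and IRF by their consensus and the others by letters, and no match overlapped another. Among 32817 promoters of the same length, 10.8% held the C/EBP letters TTGCNNAA and 8.29% the STAT letters TTCNNNGAA. The short letters GAGGAA of PU.1, the main transcription factor of macrophage identity, were in 28.3%. The TATA box TATAAA, which positions transcription starts, was in 13.6%. The AP-1 letters TGANTCA, bound by dimers of Fos and Jun proteins, were in 7.81%, and the IRF and NF-kB motifs in 3.43% and 4.5%. A match describes the letters and is not evidence of a bound site.

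The genes fell into patterns that differed in size. Saa3, Lcn2, Serpina3g, Cfb and C3 were high with LPS, low without it and lower when LPS was given with LA or in HCl-acidified medium. Slpi and Hp were near the limit of detection, and the 3 C1q chains were abundant in each group. In LPS against control, 9 of the 10 genes were called higher and 0 lower, where 32.4% of all genes tested were called higher and 32.4% lower (quasi-likelihood test in edgeR, Benjamini-Hochberg adjustment). A gene was called at an adjusted p under 0.05. Of the 9, Hp and C1qa lost the call in some fits without 1 library. With total-count scaling 5 of the 10 were higher and 3, the C1q chains, lower, beside 14.4% and 67.9% of all genes. The median log2 fold change of the 10 genes was 3.61, against -0.05 for all genes. In LPS+LA against LPS, which shares the LPS libraries with that comparison, 2 of the 10 were called higher and 5 lower, beside 29.2% and 29.7% of all genes. Their median was -1.49, against 0.03 for all genes.

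**Figure D1:**
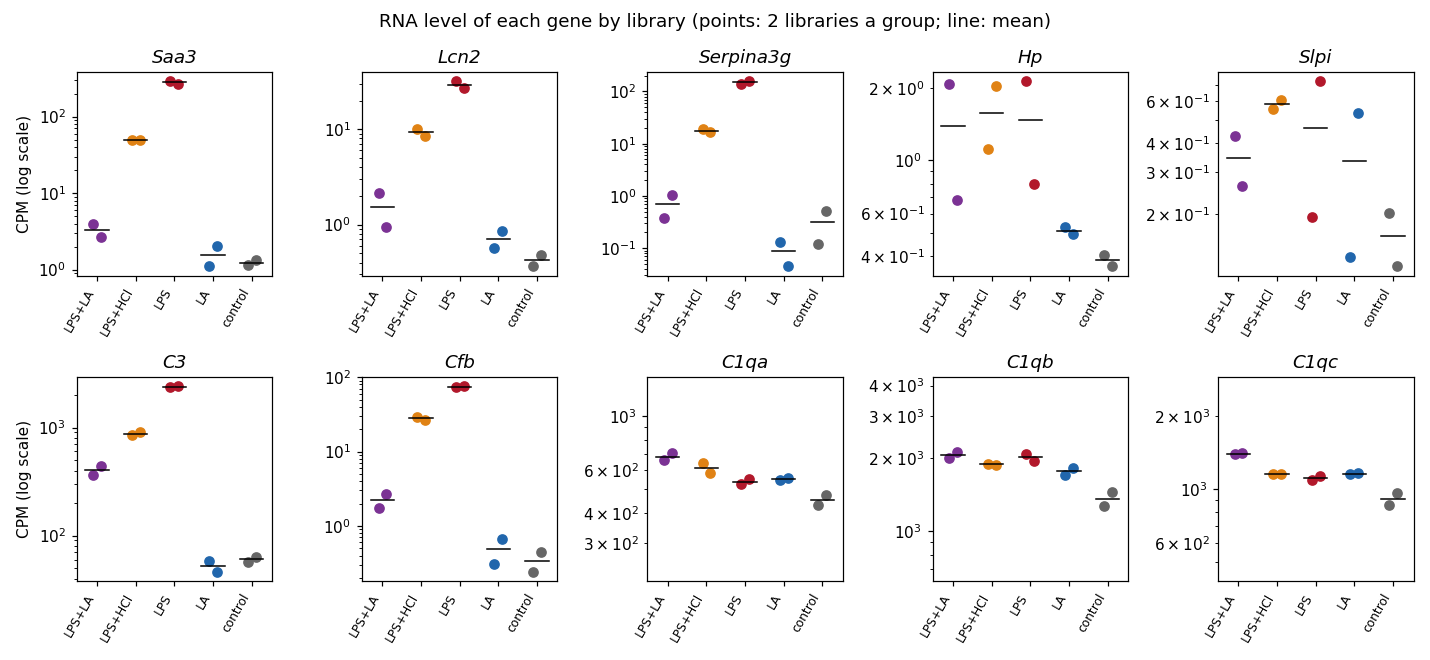
RNA level of each of the 10 genes in each library (CPM on a logarithmic axis), with a point per library and a bar at the mean of each group of 2. Saa3, Lcn2, Serpina3g, Cfb and C3 are highest in LPS, intermediate in LPS+HCl and lower in LPS+LA, while the 3 C1q chains stay between 432 and 2115 CPM.

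Saa3 encodes serum amyloid A3, an acute-phase apolipoprotein made outside the liver (gene ID 20210, chr7:46711998-46719615). Its level was 3.91 and 2.63 CPM in LPS+LA, 49.0 and 50.2 CPM in LPS+HCl, 291 and 271 CPM in LPS, 1.10 and 2.01 CPM in LA, and 1.13 and 1.32 CPM in control. The LPS libraries stood far above the rest, the LPS+HCl libraries came next without overlap, and LA overlapped control. Saa3 rose by log2 7.83 ± 0.16 (SE) in LPS against control (quasi-likelihood test in edgeR, Benjamini-Hochberg adjustment, adjusted p = 1.25e-21). The SE of a log2 value, here and below, is its size divided by the square root of the F statistic. It is not a value that edgeR reports, and it can be too small for genes with few counts in a group. It fell by 6.43 ± 0.14 in LPS+LA against LPS (edgeR, adjusted p = 1.01e-19), which left 1.16% of the LPS level. Saa3 shares sequence with other serum amyloid A genes, and its bounds overlap Gm31882, so some reads could belong to these.

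Lcn2 encodes lipocalin-2, which withholds iron from bacteria by binding their siderophores (gene ID 16819, chr2:32384637-32387739). It reached 2.14 and 0.948 CPM in LPS+LA, 9.96 and 8.56 CPM in LPS+HCl, 31.9 and 26.9 CPM in LPS, 0.571 and 0.848 CPM in LA, and 0.364 and 0.481 CPM in control. The order of the groups was that of Saa3 at a lower level, with each of the 3 LPS-treated groups apart from the others. The LPS against control difference was log2 6.10 ± 0.31 (edgeR, adjusted p = 1.47e-14). Lcn2 fell by 4.25 ± 0.26 in LPS+LA against LPS (edgeR, adjusted p = 1.65e-12), to 5.25% of the LPS level. Both LPS+LA libraries were low but differed from each other, and without LPS+LA replicate 1 the log2 value was -4.94.

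Lcn2 is also a granule gene of neutrophils, and neutrophil markers were read beside it. Of 13 such markers 12 were in the table, and they summed to 12.1 to 14.4 CPM in LPS+LA, 7.51 to 9.29 in LPS+HCl, 6.67 to 7.27 in LPS, 8.70 to 11.9 in LA and 8.73 to 8.86 in control. Mmp8 made up most of the sum, and Ly6g was at 0 in 7 of the 10 libraries. The part of such cells in the Lcn2 levels was not tested.

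Serpina3g encodes an intracellular serine protease inhibitor of the mouse serpin A3 cluster that inhibits cathepsins (gene ID 20715, chr12:104236147-104241939). It measured 0.375 and 1.05 CPM in LPS+LA, 18.8 and 16.5 CPM in LPS+HCl, 140 and 158 CPM in LPS, 0.132 and 0.0446 CPM in LA, and 0.121 and 0.521 CPM in control. LPS libraries stood far above all others, and the levels in LA and control rest on 1 to 13 counts per library. Serpina3g rose by log2 8.82 ± 0.25 in LPS against control (edgeR, adjusted p = 6.01e-17), and the value was 8.14 without control replicate 1 and 10.19 without control replicate 2. Both values lie further from 8.82 than the SE, which thus understates the uncertainty. It fell by 7.68 ± 0.23 in LPS+LA against LPS (edgeR, adjusted p = 7.03e-16), to 0.48% of the LPS level, and the log2 value was -8.61 without LPS+LA replicate 2. In LA against control it was not called, at -1.79 ± 0.87 (edgeR, adjusted p = 0.116), but without control replicate 1 it was called lower at -2.48 (adjusted p = 0.0209). Over all fits without 1 library that value ran from -2.69, without LA replicate 1, to -0.43, without control replicate 2. Its neighbours in the cluster are near copies, and 1 of its deposited counts was the fraction 2.99, so reads may be divided between it and a paralog such as Serpina3f.

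Slpi encodes the secretory leukocyte protease inhibitor, which protects tissue from neutrophil elastase (gene ID 20568, chr2:164354070-164356507). Its level was 0.428 and 0.263 CPM in LPS+LA, 0.556 and 0.608 CPM in LPS+HCl, 0.194 and 0.727 CPM in LPS, 0.132 and 0.536 CPM in LA, and 0.202 and 0.120 CPM in control. With 3 to 12 counts per library, LPS overlapped each of the other 4 groups. In LPS against control the log2 value was 1.48 ± 1.09 (edgeR, adjusted p = 0.243), with 2.13 without LPS replicate 1 and 0.26 without LPS replicate 2, and no comparison called Slpi. A difference of moderate size was not detectable at this depth.

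Hp encodes haptoglobin, the plasma protein that binds free haemoglobin (gene ID 15439, chr8:109575128-109579172). It measured 2.09 and 0.685 CPM in LPS+LA, 1.11 and 2.04 CPM in LPS+HCl, 2.14 and 0.793 CPM in LPS, 0.527 and 0.491 CPM in LA, and 0.404 and 0.361 CPM in control. The 3 groups with LPS overlapped each other and lay above LA and control. Hp was called higher in LPS against control at log2 1.92 ± 0.74 (edgeR, adjusted p = 0.0262). That call was lost without LPS replicate 1 (1.04, adjusted p = 0.398), without control replicate 1 (2.00, adjusted p = 0.0773) and without control replicate 2 (1.85, adjusted p = 0.104). The value was -0.08 ± 0.68 in LPS+LA against LPS (edgeR, adjusted p = 0.936). Hp is a neutrophil granule gene too, and the part of the neutrophil markers listed above in its levels was not tested.

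Among the complement genes, C3 was the most abundant of those with a large response (gene ID 12266, chr17:57203967-57228136). C3 is cleaved into C3b, which coats microbes, and C3a, a chemoattractant. It measured 364 and 441 CPM in LPS+LA, 845 and 901 CPM in LPS+HCl, 2364 and 2403 CPM in LPS, 58.3 and 46.3 CPM in LA, and 57.1 and 63.3 CPM in control. The groups with LPS were clearly apart from each other and from both groups without it. C3 rose by log2 5.31 ± 0.12 in LPS against control (edgeR, adjusted p = 1.21e-16). It fell by 2.57 ± 0.10 in LPS+LA against LPS (edgeR, adjusted p = 9.35e-13), to 16.9% of the LPS level, a larger remainder than for Saa3, Lcn2, Serpina3g or Cfb. In LA against control it was -0.20 ± 0.11 (edgeR, adjusted p = 0.147), and it was called lower without LA replicate 1 (-0.38, adjusted p = 0.00773).

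Cfb encodes complement factor B, the protease of the alternative pathway (gene ID 14962, chr17:34856374-34862514, in the class III region of the major histocompatibility complex). Its level was 1.77 and 2.69 CPM in LPS+LA, 29.3 and 26.5 CPM in LPS+HCl, 73.9 and 75.3 CPM in LPS, 0.308 and 0.670 CPM in LA, and 0.243 and 0.441 CPM in control. LPS libraries were highest and close to each other, and LA overlapped control. Cfb rose by log2 7.74 ± 0.23 in LPS against control (edgeR, adjusted p = 4.51e-19). The fall in LPS+LA against LPS was 5.06 on the log2 scale, with an SE of 0.18 (edgeR, adjusted p = 8.33e-17), and it left 2.98% of the LPS level. C3 and Cfb overlap the microRNA genes Mir6978 and Mir6972 and Slpi overlaps Mir7678, and the sources used here do not say whether reads were counted by strand.

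C1qa, C1qb and C1qc encode the chains of C1q and lie side by side on chromosome 4 (gene IDs 12259, 12260 and 12262, at chr4:136895916-136898844, chr4:136880126-136886200 and chr4:136889801-136892936). C1qa measured 658 and 703 CPM in LPS+LA, 638 and 584 CPM in LPS+HCl, 524 and 550 CPM in LPS, 545 and 558 CPM in LA, and 432 and 475 CPM in control. C1qb measured 2015 and 2115 CPM in LPS+LA, 1902 and 1873 CPM in LPS+HCl, 2088 and 1948 CPM in LPS, 1705 and 1828 CPM in LA, and 1275 and 1448 CPM in control. C1qc measured 1387 and 1406 CPM in LPS+LA, 1146 and 1153 CPM in LPS+HCl, 1083 and 1124 CPM in LPS, 1147 and 1160 CPM in LA, and 856 and 964 CPM in control. For each chain the control libraries were the lowest of the 10 in these TMM-scaled CPM, and the whole span was under 2-fold. In deposited TPM, a unit per transcript length that carries no TMM factor, the LPS libraries were the lowest for each chain. The reversal goes with the scaling, not with length, and is not a separate observation from the fits with total counts below. C1qa, for example, was at 768 and 814 TPM in LPS and 1069 and 1154 TPM in control.

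In LPS against control the chains were called higher under TMM scaling, C1qa at log2 0.24 ± 0.07, C1qb at 0.57 ± 0.07 and C1qc at 0.28 ± 0.06, but called lower under total-count scaling, at -0.47, -0.15 and -0.44, as were 67.9% of all genes. The adjusted p values from edgeR were 0.00367, 9.43e-08 and 0.000573 with TMM. They were 1.02e-06, 0.0331 and 6.93e-07 with total counts. The direction for C1q with LPS alone is therefore set by the scaling. The C1qa call with TMM was also lost without LPS replicate 2 (0.21, adjusted p = 0.0548) and without control replicate 1 (0.18, adjusted p = 0.0558).

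LA moved the chains in the same direction under both scalings. In LA against control, 3 of the 10 genes were called higher and 0 lower, beside 20.4% and 17.9% of all genes, and these 3 were C1qa (log2 0.28 ± 0.07), C1qb (0.38 ± 0.07) and C1qc (0.34 ± 0.06). Their adjusted p values were 0.00243, 0.000117 and 0.000187 (edgeR), and total-count scaling gave 0.17, 0.27 and 0.23, each still called. That scaling also called 1 gene lower, C3 at -0.31 (adjusted p = 0.0299), beside 14.1% of all genes higher and 25.1% lower. The C1qa call was lost without control replicate 1 and LPS+HCl replicate 2 together (0.21, adjusted p = 0.0565). The median over the 10 genes was 0.36, against 0 for all genes. The genes called higher in LPS+LA against LPS were C1qa (0.34 ± 0.07, adjusted p = 0.000184) and C1qc (0.34 ± 0.06, adjusted p = 7.96e-05). C1qb was 0.03 ± 0.07 there (edgeR, adjusted p = 0.697), but 0.44 with total counts (adjusted p = 3.82e-06), a scaling that called 50.8% of all genes higher and 16.6% lower there.

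The share of each chain within the summed C1q TPM, a unit per transcript length that does not depend on this scaling, separated the LPS libraries from the rest. C1qb took 49.6 and 50% in LPS+LA, 51.5 and 51.8% in LPS+HCl, 56.5 and 53.7% in LPS, 50.1 and 51.5% in LA, and 49.7 and 50.1% in control. The ratio of C1qb to C1qa TPM was 4.06 and 3.61 in LPS libraries and 3.01 to 3.34 in the other 8. With LPS alone the mix leaned to C1qb, and with LPS+LA the C1qb share overlapped that in control. These shares carry no test.

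**Figure D2:**
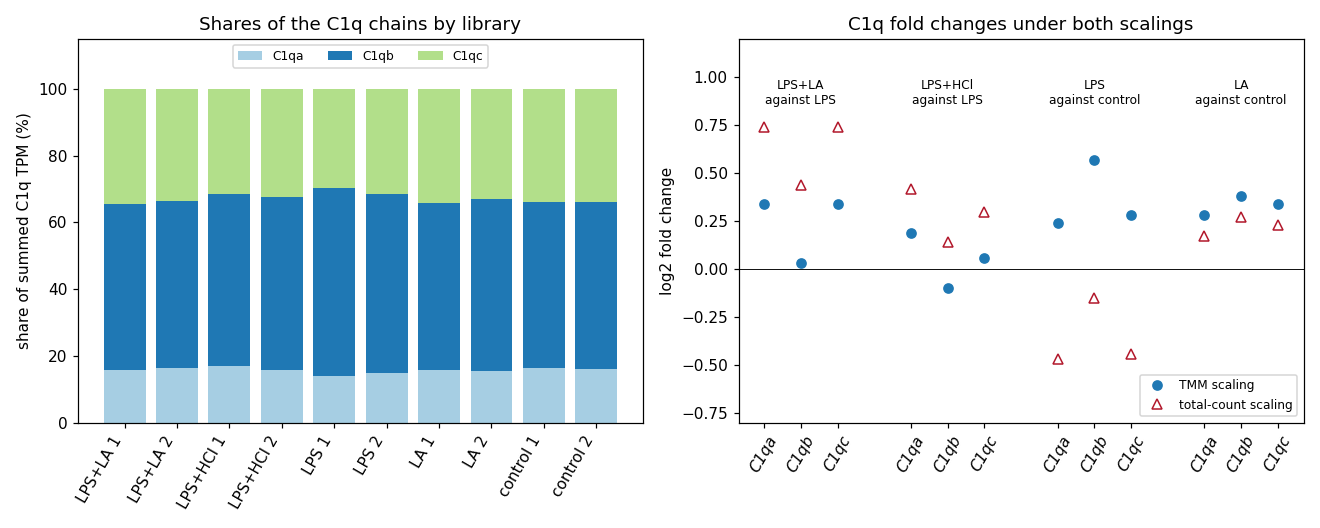
Left: share of C1qa, C1qb and C1qc in the summed C1q TPM of each library (percent). Right: log2 fold change of each chain in 4 comparisons with TMM scaling (filled circles) and total-count scaling (open triangles). C1qb takes its largest shares, 56.5 and 53.7%, in the LPS libraries, and LPS against control lies above 0 with TMM and below 0 with total counts for all 3 chains.

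LPS+HCl addressed acidity without added lactate. In LPS+HCl against LPS, 1 of the 10 genes was called higher and 5 lower, beside 18.0% and 20.8% of all genes, with a median of -0.76 against 0.01. The 5 were the genes that fell with LPS+LA. Saa3 fell by log2 2.50 ± 0.11 (edgeR, adjusted p = 1.76e-14), Serpina3g fell by 3.08 ± 0.15 (5.24e-12) and Lcn2 fell by 1.67 ± 0.21 (1.02e-06). C3 fell by 1.45 ± 0.10 (3.84e-09) and Cfb fell by 1.42 ± 0.14 (9.58e-09). These genes kept 17.6% of the LPS level for Saa3, 31.5% for Lcn2, 11.9% for Serpina3g, 36.6% for C3 and 37.4% for Cfb. C1qa was the 1 called higher, at 0.19 ± 0.07 (edgeR, adjusted p = 0.0373), and that call was lost without LPS+HCl replicate 1, LPS replicate 1 or LPS replicate 2 (0.12, 0.14 and 0.21, adjusted p = 0.351, 0.275 and 0.0957). With total-count scaling 2 were higher and 5 lower, with C1qc added at 0.30, beside 37.1% and 10.7% of all genes. LPS+LA against LPS and LPS+HCl against LPS share the LPS libraries.

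LPS+LA and LPS+HCl were compared directly, and the 5 genes were lower with LA. In LPS+LA against LPS+HCl, 1 of the 10 was called higher and 5 lower, beside 18.4% and 22.5% of all genes. The median of the 10 was -0.93, against 0 for all genes. The differences were log2 -4.61 ± 0.27 for Serpina3g (edgeR, adjusted p = 5.95e-11), -3.92 ± 0.15 for Saa3 (8.53e-15), -3.64 ± 0.19 for Cfb (2.8e-13), -2.58 ± 0.27 for Lcn2 (5.67e-08) and -1.12 ± 0.10 for C3 (8.9e-08). Cfb and C3 kept near-equal shares of their LPS level with HCl but not with LA, where Cfb kept 2.98% and C3 16.9%. Serpina3g was -5.53 without LPS+LA replicate 2 and Lcn2 -3.26 without LPS+LA replicate 1. C1qc was called higher, at 0.28 ± 0.06 (edgeR, adjusted p = 0.00113), and with total-count scaling all 3 chains were higher, C1qa at 0.32, C1qb at 0.30 and C1qc at 0.45, beside 32.3% of all genes higher and 15.5% lower. The pH of the 2 acids was not matched in the labels, so lactate and degree of acidity cannot be told apart.

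**Figure D3:**
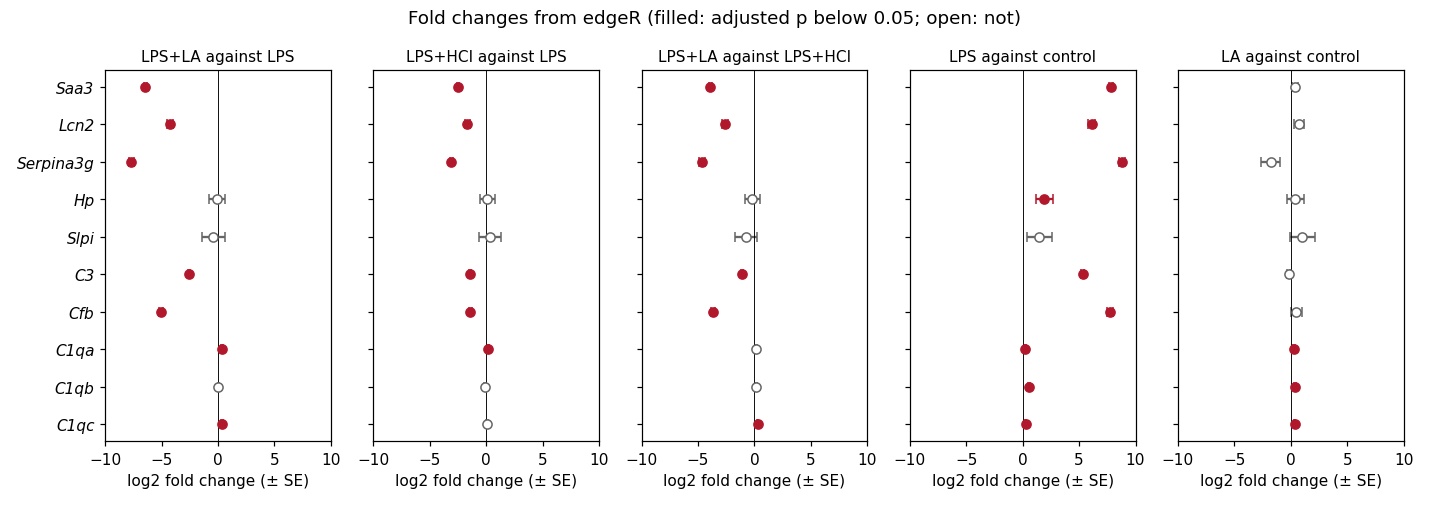
Log2 fold change of each of the 10 genes in 5 comparisons, with bars for the SE derived from the F statistic of edgeR and filled points for an adjusted p under 0.05. Saa3, Lcn2, Serpina3g, Cfb and C3 lie above 0 in LPS against control and below 0 in LPS+LA against LPS, LPS+HCl against LPS and LPS+LA against LPS+HCl, and the C1q chains lie near 0, above it for LPS against control with the TMM scaling drawn here and below it with total counts.

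The log2 change with LA differed between cells with and without LPS for 6 of the 10 genes. The interaction, that is the change with LA in LPS-treated cells less the change with LA in cells without LPS, was called negative for Saa3, Lcn2, Serpina3g, Cfb, C3 and C1qb and positive for 0, beside 23.9% and 20.4% of all genes. The median was -1.89, against 0 for all genes. Saa3, Lcn2, Serpina3g and Cfb were at or below 2.01 CPM in LA and control, so LA had little room to lower them without LPS. For these genes a negative value largely follows from the fall with LA under LPS. C3, at 57.1 and 63.3 CPM in control, had more room to fall. Saa3 was at -6.76 ± 0.37 (edgeR, adjusted p = 7.99e-13), Cfb at -5.56 ± 0.59 (3.4e-08), Lcn2 at -4.99 ± 0.55 (8.12e-08) and C3 at -2.36 ± 0.14 (7.21e-10). Lcn2 was at -5.67 without LPS+LA replicate 1, and Cfb at -4.91 without LA replicate 2. Serpina3g, at -5.89 ± 1.52 (0.0038), lost the call without LA replicate 1 (-5.00, adjusted p = 0.179), and its value was -6.82 without LPS+LA replicate 2, -5.21 without control replicate 1 and -7.26 without control replicate 2. C1qb, at -0.34 ± 0.10 (0.0052), lost it without LPS replicate 1 (-0.28, adjusted p = 0.0578) and was 0.17 with total counts, a scaling under which 5 genes were negative and 2, C1qa and C1qc, positive, beside 10.6% and 48.4% of all genes.

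With LA present, LPS still raised C3, Cfb, Serpina3g, Lcn2 and Saa3, by less than without LA. In LPS+LA against LA, a comparison added after seeing the data, 8 of the 10 were called higher and 0 lower, beside 15.9% and 14.6% of all genes. C3 rose by log2 2.94 ± 0.11 (edgeR, adjusted p = 6.73e-13), Cfb by 2.18 ± 0.34 (1.9e-05), Serpina3g by 2.93 ± 0.76 (0.0056), Lcn2 by 1.11 ± 0.38 (0.0288) and Saa3 by 1.07 ± 0.24 (0.00143). C3 and Cfb kept the call without any 1 library, while the other 3 lost it without a single library. Without LPS+LA replicate 1, Saa3 was 0.77 (adjusted p = 0.0575) and Lcn2 0.43 (0.559). Without LPS+LA replicate 2, Serpina3g was 2.01 (0.142), without LA replicate 1 it was 3.83 and Lcn2 0.86 (0.178), and without LA replicate 2 Cfb was 2.83. C1qa, C1qb and C1qc were at 0.30, 0.23 and 0.28 with TMM, but were not called with total counts (0.09, 0.02 and 0.07), where 10.6% of all genes were higher and 34.9% lower, and C1qb was not called without LPS+LA replicate 2 (0.19, adjusted p = 0.113) or LA replicate 1 (0.18, 0.109).

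In LPS+HCl against control, also added after seeing the data, 9 of the 10 were called higher and 0 lower, beside 29.6% and 28.1% of all genes. Cfb stood at log2 6.32 ± 0.24, Serpina3g at 5.75 ± 0.29, Saa3 at 5.33 ± 0.17, Lcn2 at 4.43 ± 0.32 and C3 at 3.86 ± 0.11, with adjusted p from edgeR of at most 2.67e-11. Serpina3g was 5.06 without control replicate 1 and 7.11 without control replicate 2. The chains C1qa, C1qb and C1qc were at 0.43, 0.47 and 0.34 with TMM and at -0.05, -0.01 and -0.15 with total counts, a scaling under which 5 genes were called higher and 1, C1qc, lower, beside 14.9% and 56.9% of all genes. Hp, at 2.03 ± 0.73 (edgeR, adjusted p = 0.0209), lost the call without LPS+HCl replicate 2 (1.53, adjusted p = 0.168), control replicate 1 (2.11, 0.069) or control replicate 2 (1.95, 0.0973).

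Levels of different genes were ordered by TPM, which is per transcript length. C1qb and C1qc were the highest of the 10 in each of the 5 groups. In LPS, C1qb averaged 3032 ± 129 TPM, C1qc 1680 ± 56.3, Saa3 929 ± 43.7, C1qa 791 ± 32.1 and C3 758 ± 15.5 (SD, n = 2). Saa3 stood next after C1qb and C1qc, and C1qa and C3 below it were not separated beyond their spread. In LPS+LA the order ran C1qb, C1qc, C1qa, C3, Saa3, with Saa3 at 13.1 ± 3.38 TPM below C3 at 159 ± 22.5 TPM. Below Saa3, Lcn2, Hp and Cfb were not separated beyond their spread in LPS+LA, at 2.23 to 4.93, 0.98 to 2.94 and 1.18 to 1.83 TPM. In control the 3 chains lay between 1069 and 3587 TPM, C3 at 32.0 ± 0.629 TPM, and the remaining 6 genes at or below 7.20 TPM.

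Other genes of the same systems were read from lists. Of 22 further complement components 15 were in the table and 6 passed the filter on low counts. Of these 6, 1 was called higher and 2 lower in LPS+LA against LPS, and 3 higher and 0 lower in LPS against control. The shares of all genes were 29.2% higher and 29.7% lower in LPS+LA against LPS, and 32.4% each way in LPS against control. C1ra, the C1r protease that C1q activates, averaged 7.97 CPM in LPS+LA, 27.0 in LPS+HCl, 28.7 in LPS and 4.63 in control. It fell by log2 1.85 ± 0.15 in LPS+LA against LPS (edgeR, adjusted p = 2.02e-10) and fell by 1.76 ± 0.15 in LPS+LA against LPS+HCl (1.27e-09). Its partner C1s1 was listed at 0 in LPS+LA and averaged 0.884 CPM in LPS. In LPS+HCl against LPS 0 of the 6 components were called by edgeR, where 18.0% of all genes were higher and 20.8% lower, and C1ra was at -0.09 (adjusted p = 0.659).

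Of 11 other acute-phase genes tested, 9 were called higher and 1 lower in LPS against control, 3 higher and 5 lower in LPS+LA against LPS, and 4 higher and 4 lower in LPS+HCl against LPS. The same shares of all genes stand beside these counts, 32.4% each way, 29.2% and 29.7%, and 18.0% and 20.8%. The median in LPS+LA against LPS was -0.31, against 0.03 for all genes. Cp, ceruloplasmin, a copper-carrying ferroxidase, averaged 2.47 CPM in LPS+LA, 16.9 in LPS+HCl and 66.9 in LPS, a log2 difference of -4.76 ± 0.19 in LPS+LA against LPS (edgeR, adjusted p = 7.2e-16). Il1rn, the interleukin-1 receptor antagonist, averaged 87.1 CPM in LPS+LA, 602 in LPS+HCl and 767 in LPS, and it fell by 3.14 ± 0.10 in LPS+LA against LPS (edgeR, adjusted p = 8.46e-16). Cd14, the LPS co-receptor, was higher with both acids, at 3310 and 3377 CPM in LPS+LA and 5006 and 4869 CPM in LPS+HCl, against 2539 and 2537 CPM in LPS. The log2 difference was 0.40 in LPS+LA against LPS (edgeR, adjusted p = 1.32e-05) and 0.96 ± 0.07 in LPS+HCl against LPS (3.62e-11). Of 19 listed relatives of Serpina3g and Slpi 14 were in the table and 3 passed the filter on low counts. All 3 were called higher in LPS against control and lower in LPS+LA against LPS and in LPS+HCl against LPS. The shares of all genes were 32.4%, 29.7% and 20.8%. Serpina3i, at 2.53 and 5.75 CPM in LPS and 0 in LPS+LA, LA and control, could pass the filter only in cells with LPS. Its calls were thus largely fixed by the filter, and the 3 genes do not describe the family. Serpina3f, the near copy of Serpina3g, averaged 1.12 CPM in LPS+LA, 13.6 in LPS+HCl, 122 in LPS and 0.120 in control. Wfdc17, a small whey acidic protein-domain gene, averaged 67.0 CPM in LPS+LA, 89.4 in LPS+HCl, 143 in LPS and 37.5 in control.

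Across the 10 libraries, the genes nearest to Lcn2 by Pearson correlation of log2 CPM were Saa3 (0.997), Cct3 (0.996) and A1cf (0.995). Of the other members, Cfb ranked 60 (0.984), Serpina3g 94 (0.981) and C3 1050 (0.923) among 12213 genes. The genes nearest to C1qa were Mdm4 (0.974), Zswim4 (0.965) and Rhof (0.957). C1qc ranked 11 (0.95) and C1qb 303 (0.824). These values describe 5 groups of 2 libraries, since libraries of a group share their treatment, and many genes follow such patterns.

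Chromatin at the genes was read from called ATAC peaks, which mark accessible sites but hold no read counts. Peaks of the 12 samples were merged into 127890 sites, of which 49 lay within 10 kb of a gene of the list. A site was called gained where all 3 samples of the first group of a comparison had a peak and none of the second, and lost in the reverse case. The LPS+LA and LA samples were sequenced on lane 6 and the LPS and control samples on lane 5, per the file headers, so the effects of LA and of lane cannot be told apart, whereas LPS against control and LPS+LA against LA are each within a lane. Samples held 76680 to 100667 peaks, and LA had the fewest.

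In LPS against control 8 of the 49 sites were gained (16.3%), beside 8.27% of all sites, and 1 was lost, beside 2.44%. The gained sites lay only at Serpina3g, Lcn2 and Cfb, most of them at Serpina3g. The share gained thus describes these loci and not the listed genes as a set. In LPS+LA against LA 7 were gained (14.3%), beside 6.01% of all sites, and 0 were lost, beside 0.483%. Start-site peaks of Serpina3g (chr12:104235864-104236384), Lcn2 (chr2:32387737-32388289) and one at an end of Cfb (chr17:34862076-34862842) were present in 3 of 3 LPS+LA and 3 of 3 LPS samples, and in 0 LA and 0 control samples. The Serpina3g and Lcn2 sites cover all or part of the promoters printed above. These 3 sites thus had peaks with LPS whether or not LA was present, while the RNA of the genes was at most 5.25% of the LPS level with LA. The authors' peak score at these sites was above the sample's median score in 3 of 3 LPS samples for each gene, and in 1 of 3 LPS+LA samples for Serpina3g and 0 of 3 for Lcn2 and Cfb.

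**Figure D4:**
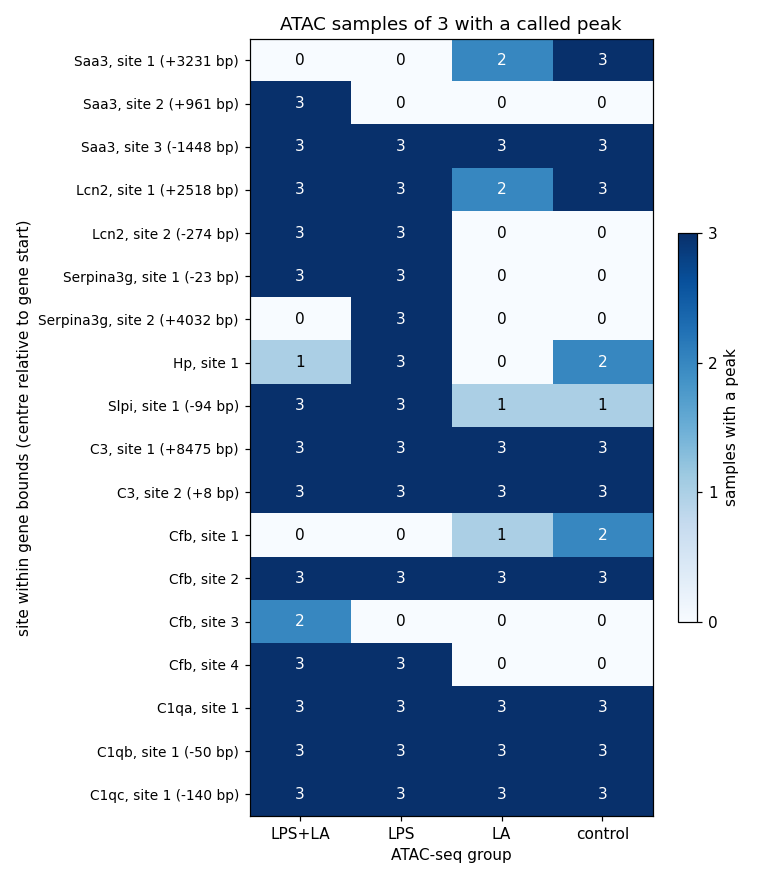
Number of ATAC samples of 3 with a called peak at each site that overlaps the bounds of a gene (rows, with the distance of the site's centre from the gene's start where its strand is known), in LPS+LA, LPS, LA and control. The start sites of Serpina3g and Lcn2 and a site at an end of Cfb have a peak in all 3 LPS+LA and all 3 LPS samples and in 0 LA and 0 control samples, and the start sites of C3, C1qb and C1qc and the site at C1qa have one in all 12 samples.

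In LPS+LA against LPS, 1 of the 49 sites was gained and 2 were lost, beside 2.24% and 2.29% of all sites. Both lost sites were at Serpina3g, inside the gene at chr12:104239980-104240378 and beyond its end at chr12:104245128-104245520, with peaks in 0 of 3 LPS+LA and 3 of 3 LPS samples. A site upstream of Lcn2 (chr2:32389196-32389518) had a peak in 1 LPS+LA and 3 LPS samples and in 0 LA and 0 control samples. The gained site lay inside Saa3 (chr7:46714585-46714845), with peaks in 3 LPS+LA samples and no sample of another group. In LA against control 0 sites were gained and 1 was lost, beside 1.53% and 2.38% of all sites, and the lost site lay upstream of Serpina3g (chr12:104230819-104231233). With so few sites, the shares lost or gained with LA cannot be set apart from those of all sites.

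At Saa3 no site was gained in LPS against control. Its nearest site upstream (chr7:46716841-46717406) had a peak in all 12 samples, and a site inside the gene (chr7:46712285-46712605) had one in 0 LPS+LA, 0 LPS, 2 LA and 3 control samples. A site further upstream of Saa3 (chr7:46723797-46724475) also had a peak in all 12 samples. That site scored at or above the sample's median in all 3 LPS+LA and all 3 LPS samples. It did so in 0 LA and 0 control samples. The starts of C3 (chr17:57227774-57228483), C1qb (chr4:136885808-136886693) and C1qc (chr4:136892718-136893389) and the site at C1qa (chr4:136898613-136899176) were open in all 12 samples. C3 RNA thus differed 39.6-fold between LPS and control cells with a peak at its start in both. The Slpi start (chr2:164356200-164357003) had peaks in 3 LPS+LA, 3 LPS, 1 LA and 1 control samples, and the site at Hp (chr8:109578737-109579447) in 1 LPS+LA, 3 LPS, 0 LA and 2 control samples.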

How the data were processed

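For RNA the authors deposited a table that lists expected counts, FPKM and TPM by gene and library. HISAT, Bowtie2 and GRCm38.p6 are named in the submitters' processing notes. The sources used here give neither the counting tool nor its use of strand. The deposited expected counts include 6.07% that are not whole, and each value was rounded. FPKM and TPM, per length as deposited, served for order and C1q shares. The filter (filterByExpr in edgeR, at least 10 counts and 15 in total) kept 12213 of 16059 genes. All 10 libraries entered 1 model with group terms in edgeR 4.0.16 (TMM, robust quasi-likelihood fit), and 6 planned contrasts and 2 added after seeing the data were tested two-sided with Benjamini-Hochberg adjustment over all genes at 0.05. The alternatives used edgeR and DESeq2 1.42.0. Each step was checked on simulated counts.

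For ATAC-seq the authors deposited 1 peak list for each sample, with a score for each peak, made by MACS2 per the file headers. Versions named in the submitters' processing notes are MACS2 2.0.10 and BWA 0.5.9, beside Picard and the build mm10 (GRCm38). Peaks were merged at an overlap of 1 bp. The sources used here do not give the scale of the score, so it only ranked peaks within a sample. They do not give the read shift for the transposase either. A site without a peak may hold reads under the caller's threshold.

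Gene bounds, gene IDs and promoters come from RefSeq (GRCm38.p6), with 15959 gene IDs matched. Named genes were the 10 members, up to 2 called genes of each list and contrast with the smallest adjusted p, and the 3 genes nearest to C1qa and to Lcn2. Cebpa, Cebpb and Serpina3i were added beside their relatives, outside this rule. Members and lists were chosen with earlier results of these data known. Replicate numbers did not pair libraries: deviations of same-numbered libraries correlated at -0.36 to 0.054 over 10 pairs of groups. Replicates differed beyond counting error in each group.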

Additional observations from a re-analysis of the deposited data

Results flagged for a closer look

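For 6 genes the effect of LA differed between cells with and without LPS, by the interaction term of the model for all genes (quasi-likelihood test in edgeR, Benjamini-Hochberg adjustment). The values are the log2 change in LPS+LA against LPS minus that in LA against control. Without LPS, Saa3, Cfb, Lcn2 and Serpina3g were at or below 2.01 CPM, so LA had little room to lower them there. Saa3 was at -6.76, with -6.43 in the presence of LPS and 0.34 in its absence. Cfb was at -5.56, with -5.06 and 0.50. Lcn2 was at -4.99, with -4.25 and 0.74. C3 was at -2.36, with -2.57 and -0.20. Serpina3g was at -5.89, with -7.68 and -1.79, where the LA libraries held 1 and 2.99 counts. C1qb was at -0.34, with 0.03 and 0.38, and this difference was 0.17 with total-count scaling.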

How the results depend on the processing

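Saa3, Lcn2, Serpina3g, Cfb and C3 kept their direction and their call in LPS against control, LPS+LA against LPS, LPS+HCl against LPS and LPS+LA against LPS+HCl in each of the alternatives run. Of 1352 values of single genes under alternatives, 1267 kept direction and call, 32 lost the call, 12 gained it and 41 changed sign. Total-count scaling moved the counts of genes called. It gave 5 higher and 3 lower in LPS against control, 1 lower in LA against control, 2 higher in LPS+HCl against LPS, 3 higher in LPS+LA against LPS+HCl, 2 positive for the interaction, 4 higher in LPS+LA against LA, and 5 higher and 1 lower in LPS+HCl against control. It turned C1qa, C1qb and C1qc to -0.47, -0.15 and -0.44 in LPS against control and to -0.05, -0.01 and -0.15 in LPS+HCl against control. It turned C1qb to 0.14 in LPS+HCl against LPS, Hp to 0.31 in LPS+LA against LPS, Slpi to -0.16 in LPS+LA against LA, and the interaction of Hp, C1qb and C1qc to 0.01, 0.17 and 0.51. These shifts follow that of the median of all genes, which was -0.77 in LPS against control. With DESeq2 size factors 0 genes were called higher in LPS+HCl against LPS. C1qb in LPS+LA against LPS was 0 with them and 0 with DESeq2's own test. Without a count filter 2 genes were called lower in LA against control, and the C1qc interaction was 0.01, as it was in a fit of the contrast's own libraries. That fit called 2 higher in LPS+LA against LPS+HCl and 5 higher in LPS+LA against LA. Without control replicate 1 and LPS+HCl replicate 2, the libraries with the highest neuron marker sums, Hp was -0.40 in LPS+HCl against LPS. In that fit Hp was 0.31 in LPS+LA against LPS+HCl, and the C1qc interaction was 0.08. Leaving out 1 library at a time gave 0 to 1 lower in LA against control and 0 to 1 higher in LPS+HCl against LPS. For Saa3, Slpi and Cfb in LA against control it gave -0.16 to 0.71, -0.28 to 1.69 and -0.15 to 0.99. For Slpi, Hp and C1qb in LPS+LA against LPS it gave -1.05 to 0.82, -1.08 to 0.81 and -0.01 to 0.09. For Slpi and Hp in LPS+HCl against LPS it gave -0.32 to 1.54 and -0.44 to 0.98, for Hp in LPS+LA against LPS+HCl -1.18 to 0.40, and for Slpi in LPS+LA against LA -0.62 to 1.35. The interactions of Hp, C1qa and C1qc ran -1.49 to 0.40, -0.01 to 0.13 and -0.09 to 0.08. Slpi and Hp held 3 to 39 counts per library, which limits what they can show. Sites within 2 kb numbered 0 lost in LA against control, 1 lost in LPS+LA against LPS and 4 gained in LPS+LA against LA. Within 50 kb they numbered 15 gained in LPS against control, 3 lost in LA against control, and 2 gained and 5 lost in LPS+LA against LPS. With peaks above each sample's median score, 5 were gained and 0 lost in LPS against control, 0 lost in LA against control, 0 gained and 4 lost in LPS+LA against LPS, and 3 gained and 1 lost in LPS+LA against LA. Leaving out 1 ATAC sample at a time gave 1 to 2 lost in LPS against control, 1 to 4 lost in LA against control, 1 to 3 gained and 2 to 4 lost in LPS+LA against LPS, and 0 to 1 lost in LPS+LA against LA. The replicate block, with the labels' numbers as a term, called 9 genes higher in LPS against control and 5 lower in LPS+LA against LPS, and it changed none of the counts of genes called in the 8 contrasts, although the numbers did not pair the libraries. Where no shift of scale or smaller sample by construction accounts for a change, the cause was not tested.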

Other observations

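Genes around the 10 were also read from lists. Of 19 tested factors and cytokines known to induce acute-phase genes, 14 were called higher and 4 lower in LPS against control by edgeR, 5 higher and 13 lower in LPS+LA against LPS, and 5 higher and 12 lower in LPS+HCl against LPS. Of all genes tested, 32.4% were higher and 32.4% lower in LPS against control, 29.2% and 29.7% in LPS+LA against LPS, and 18.0% and 20.8% in LPS+HCl against LPS. The median in LPS+LA against LPS was -1.09, against 0.03 for all genes. Il6, the main inducer of the hepatic acute-phase response, averaged 8.98 CPM in LPS+LA, 105 CPM in LPS+HCl and 828 CPM in LPS, and it was listed at 0 in control. Its difference was log2 -6.53 ± 0.11 in LPS+LA against LPS (edgeR, adjusted p = 2.4e-21) and -2.99 ± 0.09 in LPS+HCl against LPS (8.26e-17). Cebpd, a C/EBP transcription factor of the acute phase, averaged 28.9 CPM in LPS+LA, 62.2 CPM in LPS+HCl and 381 CPM in LPS, a log2 difference of -3.72 ± 0.09 in LPS+LA against LPS (edgeR, adjusted p = 1.49e-19). The other C/EBP factors on the list went the other way. Cebpa was at 3.10 and Cebpb at 0.52 in LPS+LA against LPS (edgeR, adjusted p = 1.42e-15 and 0.0117). In LPS+HCl against LPS they were at 1.06 and 0.88 (4.86e-06 and 0.000939).

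Of 15 tested receptors of the secreted proteins, 7 were called higher and 3 lower in LPS against control, and 2 higher and 5 lower in LPS+LA against LPS, beside 32.4% each way and 29.2% and 29.7% of all genes. Fpr2, a formyl peptide receptor that also binds serum amyloid A, averaged 2.09 CPM in LPS+LA, 10.6 CPM in LPS+HCl, 41.2 CPM in LPS and 0.202 CPM in control. Its log2 difference in LPS+LA against LPS was -4.29 ± 0.21 (edgeR, adjusted p = 1.97e-14). C3ar1, the C3a receptor, averaged 606 CPM in LPS+LA, 750 CPM in LPS+HCl, 1003 CPM in LPS, 398 CPM in LA and 635 CPM in control, and was called lower in LA against control at -0.67 ± 0.06 (edgeR, adjusted p = 1.08e-08). Of 19 complement receptors and regulators, 10 were called higher and 2 lower in LPS against control, and 2 higher and 5 lower in LPS+LA against LPS. Of 8 neighbours of Cfb in the class III region, 4 were called higher and 3 lower in LPS against control and 2 higher and 2 lower in LPS+LA against LPS. For both lists the shares of all genes were 32.4% higher and 32.4% lower in LPS against control, and 29.2% and 29.7% in LPS+LA against LPS.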
